A study of Mus musculus with 10 samples.

Results

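The potassium channel genes were taken as the protein-coding genes of the mouse mm9 annotation (GENCODE vM1) whose symbol starts with Kcn. There were 94 of them among 22238 protein-coding genes. They comprised 30 pore-forming voltage-gated subunits (Kcna, Kcnb, Kcnc, Kcnd, Kcnq and Kcnh), 10 electrically silent modifier subunits (Kcnf, Kcng, Kcns and Kcnv), 15 inward rectifiers (Kcnj), 14 tandem-pore leak channels (Kcnk), 8 calcium- or sodium-activated channels (Kcnma, Kcnn, Kcnt and Kcnu) and 17 auxiliary subunits and interacting proteins (Kcnab, Kcne, Kcnip, Kcnmb and Kcnrg). Suz12 and H3K27me3 were profiled by ChIP-seq in mouse ESCs of the gene trap line XG122 that carry 1 TAP-tagged Suz12 allele at the endogenous locus (Suz12 Suz12TAP/+) and express either scramble or Pcl3 shRNA, with 1 library of each kind. Pcl3 was profiled in E14 ESCs that express a TAP-tagged Pcl3 together with an shRNA against the wild-type Pcl3 (shRNA6 or shRNA7), with 2 libraries that share 1 deposited list of sites. The tagged proteins were precipitated through their Flag epitope (FlagM2 antibody), so Suz12 and Pcl3 were compared across different ESC lines. The lists give positions and p-values but no reads, so the depth behind a site is unknown. No condition had a replicate list, and all shares below describe genes of these libraries rather than variation between cultures.

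Potassium channels let potassium leave or enter the cell and so set the resting potential and end the action potential. Voltage-gated subunits open on depolarization, silent subunits alter the channels they join, inward rectifiers and leak channels hold the resting potential, and calcium-activated channels couple potassium flow to calcium. Most are known from neurons, heart and muscle. PRC2, with its core subunit Suz12, places H3K27me3 at CpG-rich starts of genes that are silent in ESCs, and Pcl3 (Phf19) is one of the proteins that join it.

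The bases just before the start of 7 Kcn genes are shown because the genes differ in what the lists hold at them. They were read from mm9, on the strand of the gene, and capitals mark CpG dinucleotides. Kcnj3, an inward rectifier of heart and brain (chr2:55288181-55288380, plus strand, 6 CpG), and Kcnf1, a silent modifier (chr12:17183695-17183894, minus strand, 1 CpG), had the smallest p-values of the H3K27me3-depleted list among the members. Kcnk9, a leak channel of neurons (chr15:72376710-72376909, minus strand, 11 CpG), and Kcna1, a voltage-gated channel of axons (chr6:126595820-126596019, minus strand, 10 CpG), had the widest of the Suz12 sites with p-values written as 0. Kcnh2, the channel of the rapid repolarizing current of the heart (chr5:23857423-23857622, minus strand, 34 CpG), had the strongest Suz12 site outside the depleted list. Kcnk5, a leak channel (chr14:21001005-21001204, minus strand, 14 CpG), and Kcnj15, an inward rectifier (chr16:95478965-95479164, plus strand, 1 CpG), had no site of any list. Kcnk5 had the highest CpG density of such members, and Kcnj15 shared the lowest with Kcnj13. The bases before Kcnj3 also lie in an exon of the noncoding RNA Gm17595 on the other strand.
Kcnj3: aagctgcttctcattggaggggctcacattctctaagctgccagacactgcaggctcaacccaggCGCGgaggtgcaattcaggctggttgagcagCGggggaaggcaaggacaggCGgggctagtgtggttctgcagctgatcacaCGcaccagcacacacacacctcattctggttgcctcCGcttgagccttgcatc
Kcnf1: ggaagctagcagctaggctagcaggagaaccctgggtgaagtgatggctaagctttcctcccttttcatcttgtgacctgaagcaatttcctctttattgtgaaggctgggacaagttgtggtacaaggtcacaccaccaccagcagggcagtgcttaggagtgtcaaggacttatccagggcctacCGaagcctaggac
Kcnk9: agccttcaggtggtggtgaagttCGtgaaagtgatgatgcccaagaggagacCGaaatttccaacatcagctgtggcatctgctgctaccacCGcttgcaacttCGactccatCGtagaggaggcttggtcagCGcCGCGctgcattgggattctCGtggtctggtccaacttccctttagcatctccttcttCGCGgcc
Kcna1: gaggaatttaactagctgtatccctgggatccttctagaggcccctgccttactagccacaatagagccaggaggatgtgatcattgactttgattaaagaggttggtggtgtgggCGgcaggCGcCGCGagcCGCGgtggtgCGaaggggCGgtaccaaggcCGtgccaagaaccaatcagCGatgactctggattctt
Kcnh2: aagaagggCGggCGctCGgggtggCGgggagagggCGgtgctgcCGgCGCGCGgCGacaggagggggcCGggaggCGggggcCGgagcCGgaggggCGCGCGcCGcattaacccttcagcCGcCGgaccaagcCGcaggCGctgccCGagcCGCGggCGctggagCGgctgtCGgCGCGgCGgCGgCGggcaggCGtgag
Kcnk5: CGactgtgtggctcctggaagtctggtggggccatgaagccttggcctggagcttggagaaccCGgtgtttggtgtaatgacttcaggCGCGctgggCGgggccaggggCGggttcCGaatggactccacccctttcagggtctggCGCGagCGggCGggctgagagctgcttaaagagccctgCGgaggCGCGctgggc
Kcnj15: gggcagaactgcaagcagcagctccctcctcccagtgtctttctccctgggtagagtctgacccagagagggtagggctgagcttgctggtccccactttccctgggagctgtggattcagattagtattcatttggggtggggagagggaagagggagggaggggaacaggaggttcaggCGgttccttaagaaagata
The sequence before Kcnh2 holds the most CpG of the 7, and its Suz12 site is not in the depleted list. Another site that is in that list lay 2422 bp from a start of Kcnh2. That before Kcnk5 holds more CpG than those before Kcnk9 and Kcna1 and was 480047 bp from the nearest Suz12 site. GCGCGC, a run of GC dinucleotides that reads the same on both strands, occurs 2 times before Kcnh2, 2 times before Kcnk5 and not in the other 5 sequences, counting matches that do not overlap.

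To find how many potassium channel genes carried PRC2 at their starts, genes with a site within 2 kb of any of their transcript starts were counted in each list. A Suz12 site was present at 63 of the 94 Kcn genes, or 67.0% (95% Wilson interval over genes 57.0% to 75.7%), while 24.6% of all protein-coding genes had one. A Suz12-depleted site, where Suz12 was lower in Pcl3 shRNA than in scramble cells, lay at 56 Kcn genes, or 59.6% (49.5% to 68.9%), and at 17.6% of all genes. A Pcl3 site lay at 41, or 43.6% (34.0% to 53.7%), and at 12.5% of all genes. An H3K27me3-depleted site lay at 12, or 12.8% (7.46% to 21.0%), and at 1.92% of all genes. The shares of the Kcn genes were thus above those of all genes in each of the 4 lists. No test was run on these shares, since genes are not replicates, and the intervals cover counting over genes only. As a comparison, 44 sodium, calcium and cyclic nucleotide-gated cation channel genes (Scn, Cacn and Hcn) had Suz12 sites at 61.4%, Suz12-depleted sites at 50.0%, Pcl3 sites at 47.7% and H3K27me3-depleted sites at 0 of 44 genes, and the difference from the Kcn genes was not tested.

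**Figure D1:**
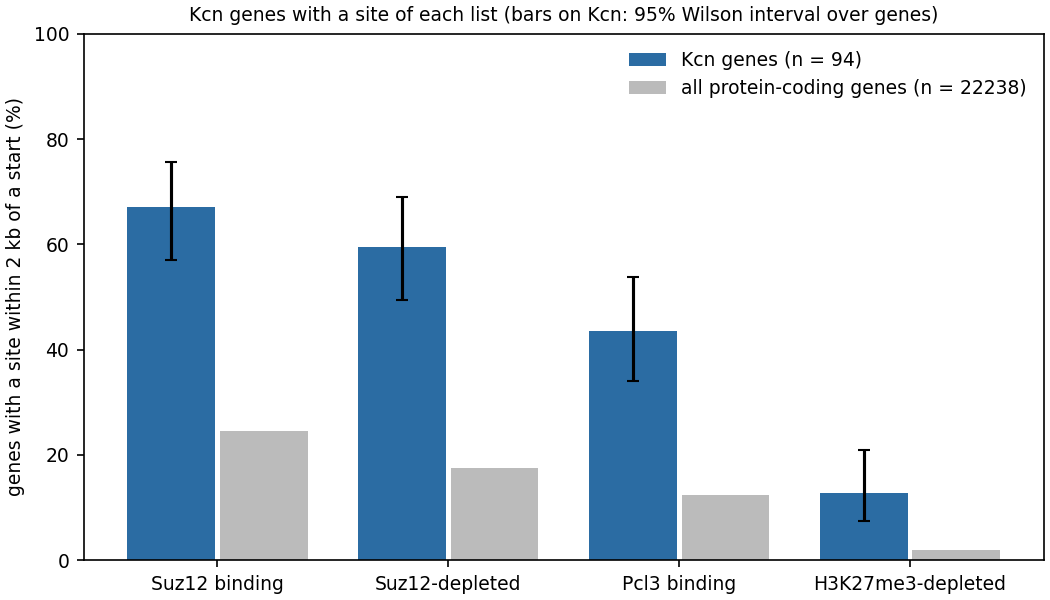
Percent of genes with a site of each list within 2 kb of a transcript start, for the 94 Kcn genes (blue, with 95% Wilson intervals over genes) and all 22238 protein-coding genes (grey). Each blue bar is above its grey bar, from 67.0% against 24.6% for Suz12 binding to 12.8% against 1.92% for decreased H3K27me3.

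The lists overlapped closely at these genes. Among the 63 Kcn genes with a Suz12 site, 56 also had a Suz12-depleted site, or 88.9% (78.8% to 94.5%), compared with 71.5% of all genes with a Suz12 site. Pcl3 lay at 41 of the 63, or 65.1% (52.8% to 75.7%), compared with 47.4%. Decreased H3K27me3 lay at 11 of the 63, or 17.5% (10.0% to 28.6%), compared with 7.52%. This difference depended on the cutoff. With p-values of at most 1e-10 in every list the shares were 3.23% (2 of 62 Kcn genes) and 2.78%. With at most 1e-12 they were 1.61% (1 of 62, interval 0.285% to 8.59%) and 1.73%. The Kcn share was then not above that of all genes, but 1 gene is too few to give a direction. No Kcn gene had a Pcl3 site without a Suz12 site, which was also rare among all genes, at 178 of the 2774 with a Pcl3 site. All 4 kinds of site met at 9 genes: Kcna7, Kcnf1, Kcng1, Kcnj3, Kcnj5, Kcnk4, Kcnk9, Kcnk13 and Kcns2. Another 31 had Suz12, Suz12-depleted and Pcl3 sites but no H3K27me3-depleted site within 2 kb of a start. Among them were Kcna1, Kcna2, Kcna3 and Kcna6. A Suz12-depleted site without Pcl3 was found at 16 genes, including the leak channels Kcnk1 and Kcnk3, the inward rectifier Kcnj2 and the calcium-activated channel Kcnn2. Suz12 without a Suz12-depleted or H3K27me3-depleted site was found at 7 genes, of which Kcnh7 had Pcl3, and Kcnv2 had an H3K27me3-depleted site without any other. The remaining 30 Kcn genes had no site of any list.

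The Suz12 sites at Kcn genes lay over the starts. At 60 of the 63 genes a transcript start was inside the strongest site, and the sites at Kcng4 (1546 bp away) and Kcns1 (1949 bp) were the farthest from one. At the 61 members with a start inside a site, the site reached a median of 643 bp before it (quartiles 433 and 1177 bp) and 1084 bp after it (774 and 1420 bp), and for all genes 460 bp (262 and 829 bp) and 850 bp (521 and 1365 bp). The strongest site was centered in a UTR at 20 genes, in a coding exon at 18, in an intron at 13 and outside protein-coding genes at 12. Its bases also came within 2 kb of another protein-coding gene at 3 members, Kcna3 (AI504432), Kcnab2 (Nphp4) and Kcnab3 (Trappc1). In none of these was the other gene nearer to the site.

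As a measure of Suz12 strength, −log10 of the deposited p-value for binding over input in scramble cells was used. The strongest sites of the 63 Kcn genes had a median of 79.8 (quartiles 45.0 and 157), while those of all genes with a Suz12 site had a median of 36.1 (15.5 and 99.5). Their widest sites had a median width of 1850 bp, and those of all genes one of 1300 bp. Strength and width rose together over the 63 genes (Spearman rho 0.911), as both were computed from the same windows of 1 library. The p-value was written as 0, below the smallest number of the format, at Kcna1, Kcnk9 and Kcnk13, whose sites span 3800, 4700 and 3450 bp (chr6:126592501-126596300, chr15:72375701-72380400 and chr12:101202351-101205800). They were followed by the leak channel Kcnk12, with a p-value of 3.37e-304 (chr17:88195901-88198700), and the fast voltage-gated channel of interneurons Kcnc4, with a p-value of 1.13e-294 (chr3:107260651-107263650). The 5 widest sites lay at Kcnk9, Kcnh3 (4100 bp), Kcna1, Kcnk13 and Kcnd3 (3450 bp).

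**Figure D2:**
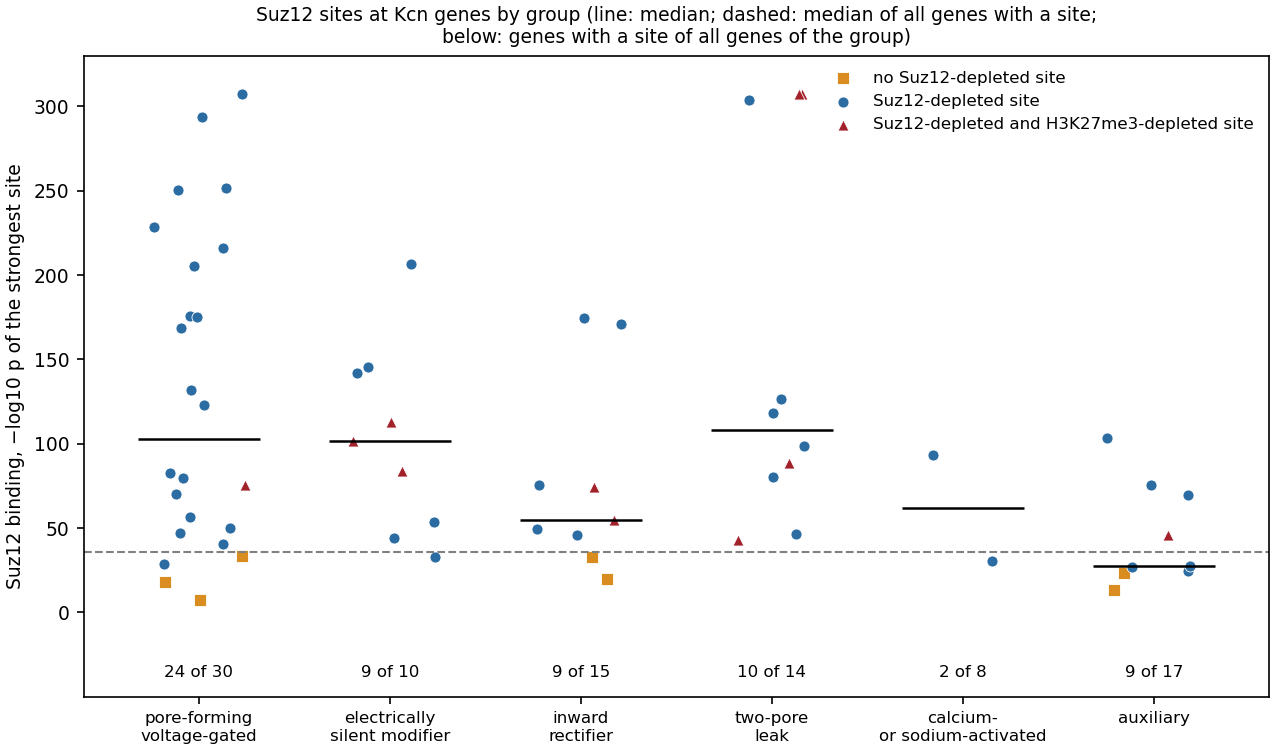
Strength of Suz12 binding in scramble cells (−log10 p of the strongest site near each gene, linear axis) for the 63 Kcn genes with a site, by group. Symbols give presence in the depleted lists, black lines the group medians and the dashed line the median of all genes with a site (36.1). The 7 sites outside the Suz12-depleted list (squares) lie between 7.58 and 33.6, while those in it reach 307, where p-values written as 0 were placed.

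Voltage-gated pore-forming subunits were bound by Suz12 at 24 of 30 genes, with a Suz12-depleted site at 21 and Pcl3 at 18, or 80.0%, 70.0% and 60.0%, beside 24.6%, 17.6% and 12.5% of all genes, and the bound sites had a median strength of 103. Kcnq1 and Kcnq5, which carry slow potassium currents of heart and neurons, had Suz12, Suz12-depleted and Pcl3 sites, with Suz12 p-values of 1.16e-83 and 1.18e-175. Kcnq3, a neuronal channel, was bound and depleted without Pcl3 (2.14e-41). Among the Kcnh genes, Kcnh3 had a site of 4100 bp and a p-value of 4.86e-206, Kcnh7 a site of 800 bp and one of 1.04e-18, and Kcnh6 and Kcnh8 had no Suz12 site. Kcnc1 and Kcnc2, channels of fast-firing neurons, had Suz12 p-values of 3.11e-229 and 6.87e-217, both with Pcl3. Kcnd2 and Kcnd3, which carry the fast transient current, were bound (p-values of 1.61e-80 and 3.12e-252), while Kcnd1 on chromosome X was 99568 bp from the nearest Suz12 site. Of the Kcna genes, Kcna1, Kcna5 and Kcna6 lie side by side on chromosome 6 and all were bound, with p-values written as 0, of 1.27e-50 and of 1.65e-176, and with Pcl3 at Kcna1 and Kcna6. On chromosome 3, Kcna2 (2.20e-169) and Kcna3 (9.25e-133) were bound, both with Pcl3, while Kcna10, which starts farther along the same stretch, was 79524 bp from a Suz12 site. Decreased H3K27me3 was found at 1 of the 30 genes, Kcna7, a channel of skeletal muscle, or 3.33%, which is near the 1.92% of all genes.

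Silent modifier subunits, which form no channel of their own but alter Kcnb channels, were bound at 9 of 10 genes, each with a Suz12-depleted site, and 7 had Pcl3, or 90.0%, 90.0% and 70.0%, beside 24.6%, 17.6% and 12.5% of all genes. Kcng3 had the smallest Suz12 p-value of the group (3.65e-207), followed by Kcns1 (3.93e-146) and Kcns3 (1.43e-142). Decreased H3K27me3 lay at 4 of the 10, Kcnf1, Kcng1, Kcns2 and Kcnv2, or 40.0%, beside 1.92% of all genes. Kcnb2, a channel they join, was 24683 bp from the nearest Suz12 site.

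Tandem-pore leak channels were bound at 10 of 14 genes, or 71.4%, beside 24.6% of all genes. All 10 had a Suz12-depleted site (71.4% of the group, beside 17.6% of all genes), as did 71.5% of all genes with a Suz12 site. The 10 fell in the middle and strongest of the 3 strength classes described below, where 89.9% and 99.9% of all genes were depleted. Pcl3 lay at 8 of them (57.1%, beside 12.5% of all genes). Decreased H3K27me3 lay at 4 (28.6%, beside 1.92%), namely Kcnk1, Kcnk4, Kcnk9 and Kcnk13. Their median strength was 108, and the weakest of the 10, Kcnk1, had a p-value of 1.34e-43. Kcnk4 and Kcnk2, channels opened by stretch and heat, had p-values of 1.39e-89 and 5.61e-119. Kcnk3, an acid-sensitive channel, was bound and depleted without Pcl3 (3.93e-81). Kcnk5, Kcnk7, Kcnk16 and Kcnk18 had no site.

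Inward rectifiers were bound at 9 of 15 genes, with Suz12-depleted sites at 7 and Pcl3 at 6, or 60.0%, 46.7% and 40.0%, beside 24.6%, 17.6% and 12.5% of all genes. Kcnj4 and Kcnj12 had the smallest p-values (2.58e-175 and 5.59e-172). Kcnj3 and Kcnj5, which together form the channel that slows the heart on vagal stimulation, had Suz12 p-values of 3.67e-75 and 2.43e-55, and each had a Suz12-depleted, a Pcl3 and an H3K27me3-depleted site. Kcnj10, the rectifier of glia, and Kcnj11, the pore of the channel that couples ATP to insulin release, were bound without a Suz12-depleted site. Kcnj9 was the unbound member nearest to a Suz12 site, at 2244 bp, just outside the 2 kb limit.

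Calcium- or sodium-activated channels were bound at 2 of 8 genes, a share near the 24.6% of all genes. The bound members were Kcnn2 (p-value of 4.22e-94) and Kcnt1 (6.05e-31). Both had a Suz12-depleted site and neither had Pcl3. Kcnma1, the large-conductance calcium-activated channel, was 199725 bp from the nearest Suz12 site. Auxiliary subunits and interacting proteins were bound at 9 of 17 genes, or 52.9%, with Suz12-depleted sites at 7, or 41.2%, beside 24.6% and 17.6% of all genes. Pcl3 lay at 2 of them, Kcnip3 and Kcnmb4, or 11.8%, which is near the 12.5% of all genes. Their median strength of 27.7 was the lowest of the 6 groups, with a range from 13.0 to 103, and overlapped the range of 7.58 to 307 of the pore-forming voltage-gated subunits. The cytoplasmic beta subunits Kcnab1 and Kcnab2 had no Suz12-depleted site at their Suz12 sites, and Kcnab3 was depleted (Suz12 p-value of 4.75e-70). Of the Kcne subunits, Kcne1l and Kcne3 were bound and depleted (5.44e-25 and 2.11e-28), while Kcne1, Kcne2 and Kcne4 were over 100 kb from a Suz12 site. Kcnmb4, the beta subunit of large-conductance channels in brain, had a p-value of 4.29e-104, and Kcnmb1, Kcnmb2 and Kcnmb3 had no site.

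A Suz12 site without a Suz12-depleted site was found at 7 Kcn genes, among them Kcnab1, Kcnab2, Kcnh2, Kcnh7, Kcnj10 and Kcnj11. Their strength ranged from 7.58 to 33.6 with a median of 20.1. That of the 56 genes with a depleted site ranged from 24.3 to 307 with a median of 86.4. For all genes with a Suz12 site, the medians were 11.2 without and 62.9 with a depleted site. By p-value, the 5 strongest of the 7 were Kcnh2 (2.46e-34, chr5:23856951-23858600), Kcnj11 (1.56e-33, chr7:53354601-53356250), Kcnab1 (5.06e-24, chr3:64912801-64913900), Kcnj10 (8.53e-21, chr1:174270701-174271700) and Kcnh7 (1.04e-18, chr2:63021801-63022600). Depleted sites weaker than that at Kcnh2 lay at Kcnv1, Kcnt1, Kcnh4, Kcne3, Kcnip4 and Kcne1l, so the ranges of the genes in and outside the depleted list overlapped. The lists hold no counts, so whether Suz12 fell at the 7 sites by less than the cutoff could detect is not known. Kcnh7 alone of the 7 had a Pcl3 site (p-value of 8.22e-08). For Kcnh2 the nearest Suz12-depleted site was 2422 bp from a start, so it was left out by the 2 kb limit.

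Each Suz12-depleted site is also a Suz12 binding site with the same p-value, so strength here is binding in scramble cells and not the size of the loss. The shares were therefore also read within 3 classes of strength that hold nearly equal numbers of all genes with a Suz12 site. In the strongest class, all 38 Kcn genes were depleted, beside 99.9% of all genes there, and 92.1% had Pcl3, beside 90.7%. In the middle class, 85.7% of 21 Kcn genes were depleted, beside 89.9%, and 23.8% had Pcl3, beside 40.7%. In the weakest class, 0 of 4 Kcn genes were depleted and 1 had Pcl3, while 24.5% and 10.7% of all genes did. Within the strongest and middle classs, the depleted share of the Kcn genes lay within 5 percentage points of that of all genes, and 38 of the 63 fell in the strongest class. Decreased H3K27me3 lay at 21.1% of the Kcn genes in the strongest class, beside 16.5% of all genes, and at 14.3% in the middle class, beside 4.61%.

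Pcl3 sites at Kcn genes were examined next. At all 41 genes with Pcl3, the strongest Pcl3 and Suz12 sites shared bases, and at 39 the Pcl3 site was the narrower one. The median width of the Pcl3 sites was 1150 bp (quartiles 750 and 1800 bp), and that at all genes with Pcl3 was 1100 bp (650 and 2000 bp). Their median −log10 p was 23.9, and at all genes with Pcl3 22.5. Over the 41 genes the strengths of the Suz12 and Pcl3 sites rose together (Spearman rho 0.832, Pearson r 0.724), where each axis comes from 1 list. Among all genes with a Suz12 site, those with Pcl3 had a median Suz12 strength of 101 and those without Pcl3 one of 17.6. For the Kcn genes these medians were 123 and 37.1. The smallest Pcl3 p-values were at Kcnk9 (written as 0), Kcna1 (3.63e-146), Kcnk13 (6.92e-118) and Kcnk12 (5.08e-110). These 4 genes also had the smallest Suz12 p-values, although the lists come from different cell lines.

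Decreased H3K27me3 was found at 12 Kcn genes. Whether the p-values of this list measure the decrease or the H3K27me3 level could not be checked, so they are given as labels of the sites and not as sizes of the decrease. The smallest was at Kcnj3, with 1.59e-17 over chr2:55287851-55290250, an interval that covers the start of the gene and most of its Suz12 site. Kcnf1 followed with 1.63e-11 (chr12:17181351-17183200) and Kcnk13 with 1.25e-10 (chr12:101202701-101203900). Kcnj5 had 9.45e-10 (chr9:32151301-32152550) and Kcnk4 1.17e-09 (chr19:7007301-7008900). At Kcnv2, Kcnip1 and Kcns2 the p-values were 2.45e-09, 2.64e-09 and 6.20e-09. Kcnk1 (1.27e-08), Kcng1 (3.21e-08), Kcnk9 (3.50e-08) and Kcna7 (4.94e-08) were near the cutoff of 1e-07 that the authors applied. Of the 426 protein-coding genes with an H3K27me3-depleted site, 412 also had a Suz12 site within 2 kb of a start. At 11 of the 12 Kcn genes the H3K27me3-depleted site shared bases with a Suz12 site, all of them with a Suz12-depleted site. At Kcnip1, which binds Kcnd channels, these sites lay at an inner transcript start and not at the 5′ end of the gene. Kcnv2, a silent subunit of photoreceptors, was the exception: its site (chr19:27397551-27399050, over a coding exon) lay 473 bp from the start, and the nearest Suz12 and Pcl3 sites were 103228 bp and 103928 bp away.

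The limit of 2 kb separated Kcna7, at 1271 bp the farthest gene counted, from Kcna1, whose nearest H3K27me3-depleted site was 2469 bp away (p-value of 1.83e-08). That site (chr6:126592251-126593350) shared bases with the strongest Suz12 site of Kcna1 (chr6:126592501-126596300), so only the distance to the start kept Kcna1 out of the count. With p-values of at most 1e-10 in every list, only Kcnf1 and Kcnj3 were left, or 2.13% of the Kcn genes and 0.634% of all genes. Chromosome 11 held 8 Kcn genes and 1 of the 12, Kcnip1. Without that chromosome, decreased H3K27me3 lay at 12.8% of the Kcn genes and at 1.47% of all genes.

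**Figure D3:**
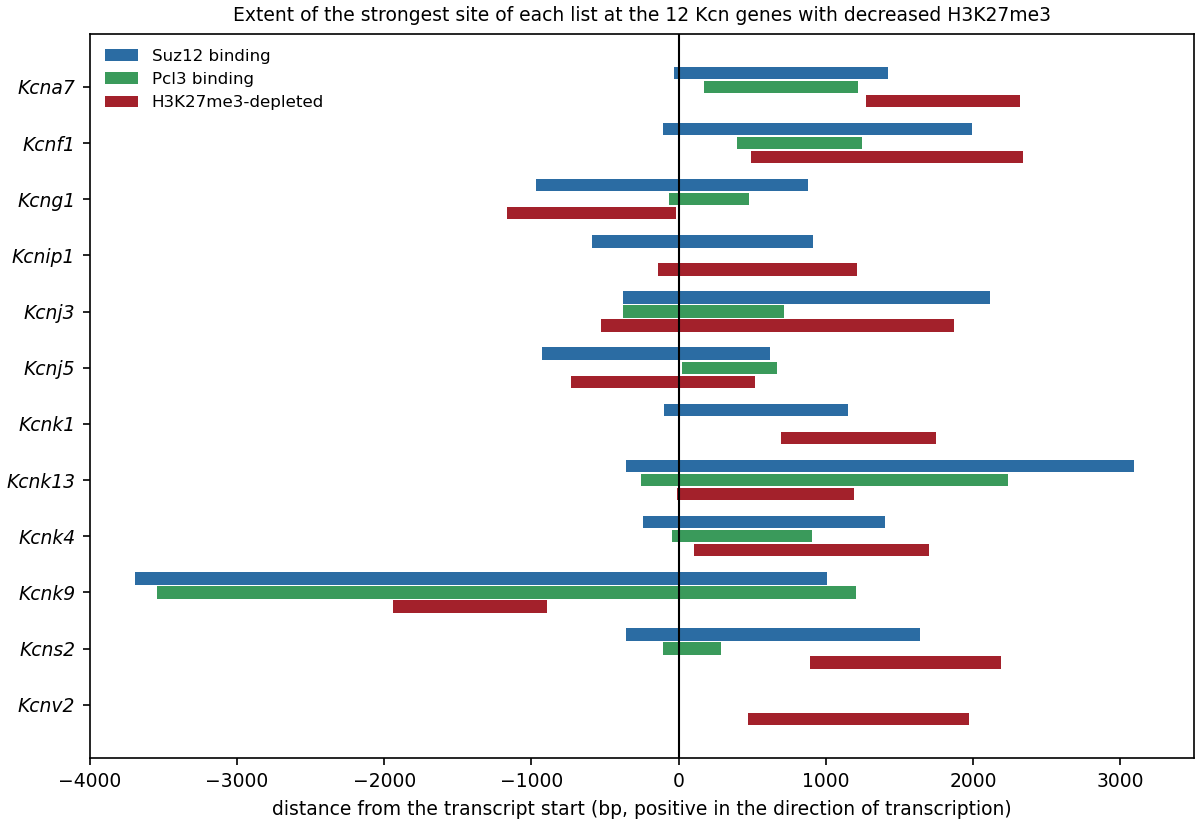
Extent of the strongest Suz12 (blue), Pcl3 (green) and H3K27me3-depleted (red) site at the 12 Kcn genes with decreased H3K27me3, as distance in bp from the transcript start in the direction of transcription. At 11 genes the red interval overlaps the blue one, and Kcnv2 has a red interval only.

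To see what the bound genes share, CpG density was counted over the 1 kb around the 5′ start of each gene in mm9. Kcn genes with a Suz12 site had a median of 5.70 CpG per 100 bp and those without one 1.70, compared with 6.30 and 2.60 for all genes. As a whole the Kcn genes were close to all genes in CpG density, with medians of 4.00 and 4.10. A start was called CpG-rich at 3 or more CpG per 100 bp, which held for 63 of the 94 Kcn genes (67.0%) and for 57.0% of all genes. Of the Kcn genes with a CpG-rich start, 56 of 63 had a Suz12 site, or 88.9%, while 37.3% of all genes with such a start had one. Of the other Kcn genes, 7 of 31 had a Suz12 site, or 22.6%, compared with 7.76% of all such genes. Among the 63 bound genes, strength followed CpG density only weakly (Spearman rho 0.223, Pearson r 0.233).

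**Figure D4:**
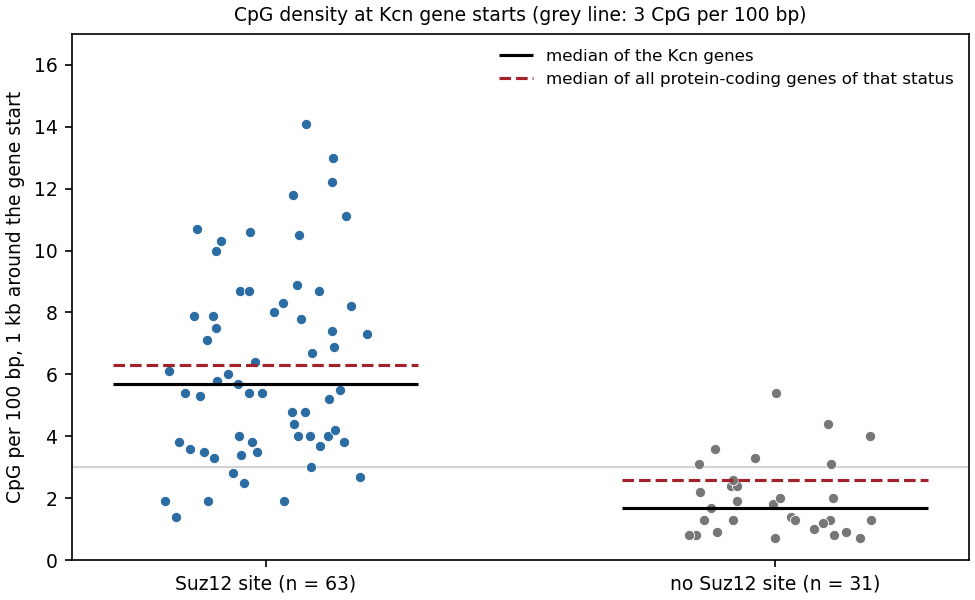
CpG per 100 bp in the 1 kb around the gene start of the 63 Kcn genes with and the 31 without a Suz12 site (points). Black lines are their medians (5.70 and 1.70), red dashed lines the medians of all protein-coding genes of the same status (6.30 and 2.60) and the grey line is at 3 CpG per 100 bp. Points of the groups overlap between 1.4 and 5.4.

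The 7 Kcn genes with a CpG-rich start and no Suz12 site were Kcna4, Kcnh6, Kcnip2, Kcnk5, Kcnn1, Kcnn3 and Kcnt2, with densities from 3.10 to 5.40. The 7 with a Suz12 site and fewer CpG at the 5′ start were Kcna5, Kcnab1, Kcnc2, Kcng4, Kcnip1, Kcnip3 and Kcnk10. At Kcnip1, Kcnip3 and Kcnk10 the strongest Suz12 site lay at another transcript start, where CpG was not counted. Their low density therefore does not describe the bound sequence. GCGCGC was present in the 1 kb around the 5′ start at 36 Kcn genes (38.3%) and at 31.6% of all genes. It was present at 54.0% of the Kcn genes with Suz12 and 54.2% of all genes with Suz12, and at 6.45% and 24.2% of those without. The match is a description of the sequence and not a binding site.

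The Kcn genes are longer than most, with a median of 28114 bp against 15512 bp, but had as many annotated transcript starts per gene, a median of 2 in each. At the 5′ start of the gene alone, 55.3% of the Kcn genes and 16.4% of all genes had a Suz12-depleted site. Counted in the same way, 64.9% and 23.1% had a Suz12 site. The 31 Kcn genes without one lay a median of 80297 bp from the nearest Suz12 site, 5 of them within 10 kb and 14 of them over 100 kb away.

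As a check of the cells, the ESC genes Pou5f1, Nanog, Sox2 and Zfp42 had no site of any list at their starts, while Esrrb and Klf4 had Suz12 and Suz12-depleted sites. The lists hold no expression, so neither the cell type nor the knockdown of Pcl3 could be checked from them, and which of the Kcn genes were transcribed is not known.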

How the data were processed

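ChIP-seq libraries of mouse ESCs (6 ChIP and 4 input) were made by the authors, who used bowtie to place reads of 30 nucleotides on mm9 if they matched uniquely, scaled paired libraries to equal background, tested 400 bp windows with the Skellam distribution at a stated cutoff of 1e-07 and joined windows. They deposited 4 lists of sites (8876 Suz12, 5722 Suz12-depleted, 5242 Pcl3 and 678 H3K27me3-depleted) with 1 p-value per site and no counts, so depth and fold changes are not known. Unique alignment omits repeats, and scaling assumes alike background in both libraries. All 5722 Suz12-depleted sites carry the position and p-value of a binding site, so they cannot be ranked by their loss. P-values written as 0 (435 Suz12 and 208 Pcl3 sites) were placed at the largest −log10 value, 307. What the deposited p-values of the H3K27me3-depleted list compare is not stated in that list and could not be checked, as no H3K27me3 binding list was used here.

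A gene was counted when any base of a site lay within 2 kb of a transcript start (GENCODE vM1). Entries with 1 symbol were merged, which joined 96 Kcn entries into 94 genes. Intervals are 95% Wilson intervals over genes. No test was run, because each list is a single call set. The 5 strongest and 5 widest Suz12 sites, the 5 strongest Suz12 sites outside the depleted list, the members with decreased H3K27me3 and any member with a depleted or Pcl3 site but no Suz12 site were named by rule, the others by subfamily, and values given for further members were picked after they were seen. No site was shared between members. Values of some members are not reported here. The members and lists were chosen with earlier results of these data known. The overlap search and the CpG count were tested on simulated data. Coordinates are 1-based. Sequence was read with samtools 1.23.1 and pysam 0.24.0, tables were handled in Python 3.11.15 with pandas 2.3.3 and numpy 2.4.6, intervals came from statsmodels 0.14.6, correlations from scipy 1.17.1 and plots from matplotlib 3.10.9. Other distances, site centers, starts, p-value cutoffs, chromosomes and gene subsets were tried as alternatives.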

Additional observations from a re-analysis of the deposited data

How the results depend on the processing

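Of 123 recomputed values, 114 stayed within the interval of the reported value and 9 moved. The shares of all Kcn genes with a site stayed above those of all protein-coding genes in each of 60 recomputations. With p-values of at most 1e-10 and 1e-12 in every list, decreased H3K27me3 lay at 2.13% and 1.06% of the Kcn genes, beside 0.634% and 0.373% of all genes. Among Kcn genes with a Suz12 site it lay at 3.23% and 1.61% (2 and 1 of 62 genes), beside 2.78% and 1.73%. Under the stricter cutoff the Kcn genes were no longer above all genes, but that share rests on 1 gene. Fewer sites enter under these cutoffs by construction. With CpG-rich starts alone, Suz12 lay at 88.9% of the Kcn genes, Suz12-depleted sites at 79.4% and Pcl3 at 60.3%, beside 37.3%, 26.9% and 19.3% of all such genes. Over 1000 bp either side of the start, the median CpG density of bound Kcn genes was 4.40 per 100 bp. Width in place of −log10 p gave a median of 1850 bp, a different unit that cannot be set against the reported value. Counting annotation entries alone, and requiring that the strongest Suz12 site itself be in the depleted list, were added after the data were seen and moved no value. The latter can change only the Suz12-depleted shares. Its other values repeat the reported ones by construction and are counted among the 114 and the 60. Without replicate lists no library could be left out, and no paired analysis was possible because each condition has 1 library. The reads behind a site are not in the lists, so the precision of a single site is unknown.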
